A study of Homo sapiens with 6 samples.

Results

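The genes described are 10 members of the insulin-like growth factor (IGF) axis in hPSCs: the IGF binding proteins IGFBP2, IGFBP3, IGFBP4, IGFBP5, IGFBP6 and IGFBP7, the receptors IGF1R, IGF2R and INSR, and the adaptor IRS1. They were chosen by symbol, through the GENCODE gene identifiers of the tables, out of 60719 genes, and all 10 were found. RNA was measured in 3 libraries of hPSCs exposed to simulated microgravity (sµg) on a rotating clinostat and in 3 libraries of hPSCs kept at normal gravity (1g) in chamber slides that stood still, both for 96 h in StemFlex medium on Matrigel. All 6 libraries carry the same label for the cells, naming H1 together with H9, which are established lines of pluripotent cells derived from human embryos, and neither the labels nor the methods tell which line a given library came from. The methods state complete filling with medium for the sµg slides and do not state it for the 1g slides. The sµg slides turned and the 1g slides were static, so rotation, any filling difference and the change in gravity cannot be told apart. The question put to these genes was which of them differed in RNA level between sµg and 1g.

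IGF1 and IGF2 signal through IGF1R, a tyrosine kinase at the cell surface, and insulin signals through the closely related INSR, with IRS1 as a docking protein that passes the signal to PI3-kinase and AKT. The IGFBPs are secreted proteins that hold IGFs outside the cell and so set how much ligand is free to reach the receptors, and IGF2R takes up IGF2 and delivers it to lysosomes. In hPSC culture, IGF and insulin signalling is known for supporting survival and self-renewal.

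The libraries held between 19971097 and 20588215 expected counts in sµg and between 20876937 and 28506848 in 1g. Replicate 3 of sµg stood apart from the other sµg libraries: its counts differed from theirs by a chi-square per degree of freedom of 5.82 and 6.11, against 1.64 between sµg replicates 1 and 2 and 1.79 to 2.22 among the 1g libraries. Results without it are given beside those it moved. The pluripotency factors that define the labelled cell type were abundant in every library, with mean levels of 2259 TPM (a level per transcript length, summing to the same total in every library) in sµg and 2183 TPM in 1g for POU5F1, 163 TPM in sµg and 159 TPM in 1g for SOX2, and 109 TPM in sµg and 116 TPM in 1g for NANOG. None of these 3 passed the test. In edgeR's quasi-likelihood test across 16763 genes, 33.7% were called at an adjusted p (Benjamini-Hochberg) under 0.05, 18.2% lower and 15.5% higher in sµg, so that a call was common in these data.

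Of the 10 members, 5 fell in sµg and 0 rose: IGFBP2, IGFBP3, IGFBP5, IGFBP6 and INSR. The share of all tested genes that fell was 18.2%. DESeq2 also called 5 lower and 0 higher, where it called 14.3% of all genes lower and 11.4% higher. At an unadjusted p under 0.05 in edgeR, 1 member, IGFBP4, was higher, where 20.4% of all genes were. Without sµg replicate 3, the same 5 were lower. Among the binding proteins 4 of 6 fell, and among the receptors and IRS1 1 of 4 did. The same 5 were the members whose sµg and 1g libraries did not overlap in CPM (counts scaled to library size with TMM factors), where 23.7% of all tested genes did not overlap with sµg on the low side. The median log2 fold change of the members was -0.22, against 0.01 over all genes tested.

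**Figure D1:**
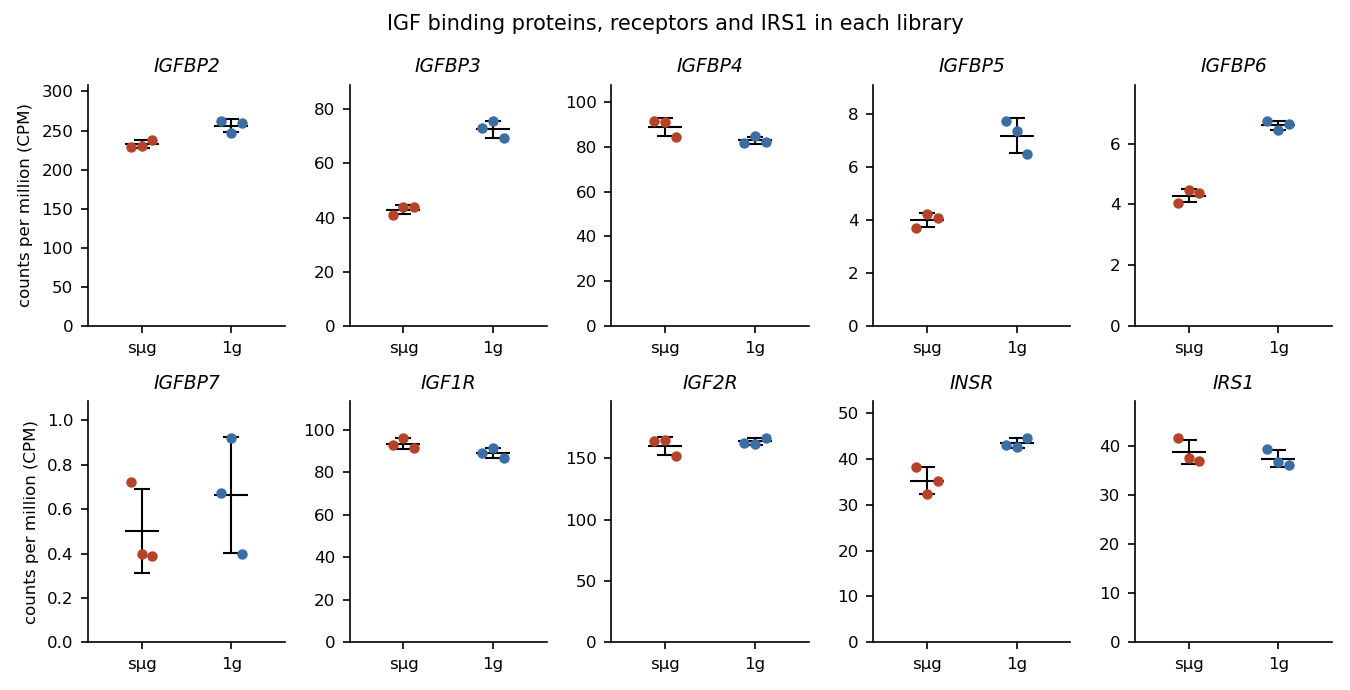
CPM of the 10 genes in each library, sµg in red on the left and 1g in blue on the right of each panel, with the mean and SD of 3 libraries as black bars and each axis starting at 0. The sµg points lie below all 1g points for IGFBP2, IGFBP3, IGFBP5, IGFBP6 and INSR, and the groups overlap for IGFBP4, IGFBP7, IGF1R, IGF2R and IRS1.

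By level per length, IGFBP2 was by far the most abundant member, with a mean of 364 TPM in sµg and 391 TPM in 1g, and IGFBP4 was second with 58.9 TPM in sµg and 53.6 TPM in 1g. IGFBP3 followed with 28.6 TPM in sµg and 46.4 TPM in 1g, and IGF2R with 24.8 TPM in sµg and 25.6 TPM in 1g. Below them, the order differed between the conditions. IGFBP6 averaged 10.4 TPM in sµg, under the 13.5 TPM of IGF1R there, and 16.4 TPM in 1g, above the 12.6 TPM of IGF1R there. INSR had 8.16 TPM in sµg and 8.46 TPM in 1g, and IRS1 had 5.84 TPM in sµg and 5.27 TPM in 1g. IGFBP5, with 0.88 TPM in sµg and 1.58 TPM in 1g, and IGFBP7, with 0.643 TPM in sµg and 0.867 TPM in 1g, came last in both conditions. Within a condition, the libraries of no neighbouring pair in this order overlapped.

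IGFBP3 (ENSG00000146674.15), the main carrier of IGFs in blood, showed the change with the smallest adjusted p of the 10. It had 40.9, 44.02 and 43.9 CPM in the 3 sµg libraries, against 73.0, 75.6 and 69.3 CPM in the 3 1g libraries. Every sµg library lay far below every 1g library, and the gap was many times the spread within either condition. IGFBP3 fell by 40.8% in sµg (log2 fold change -0.76, SE 0.049, edgeR adjusted p = 1.02e-09), and it kept its call in all 14 alternative settings, with log2 fold changes between -0.79 and -0.68. The gene lies on the minus strand of chromosome 7 (45912245 to 45921874, GRCh38, GENCODE 44).

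IGFBP5 (ENSG00000115461.5), a binding protein that sticks to extracellular matrix, was a low-level gene with 3.70, 4.22 and 4.08 CPM in sµg, against 7.73, 7.37 and 6.48 CPM in 1g. These CPM rest on 246 counts in sµg and 517 counts in 1g over 3 libraries each. IGFBP5 fell by 44.5% (log2 fold change -0.85, SE 0.123, adjusted p = 3.12e-05 by edgeR). Its call held in all 14 settings, but the log2 fold change was -0.45 on the scale of log2(TPM + 1), which compresses changes of genes at such low TPM.

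IGFBP6 (ENSG00000167779.9), which prefers IGF2 over IGF1, had 4.04, 4.47 and 4.37 CPM in sµg, against 6.74, 6.45 and 6.65 CPM in 1g. The libraries of each condition lay close together and the conditions were well apart. IGFBP6 fell by 35.1% (log2 fold change -0.62, SE 0.117, adjusted p = 0.000407 by edgeR) and was called in all 14 settings. Because its transcripts are short, it ranked well above IGFBP5 per length although both had similar CPM. IGFBP6 is on the plus strand of chromosome 12 (53097436 to 53102345).

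IGFBP2 (ENSG00000115457.10), the binding protein that dominates in these cells, fell by far less. It had 228, 231 and 238 CPM in sµg, against 262, 247 and 260 CPM in 1g. The highest sµg library and the lowest 1g library were close to each other. The fall was 9.38% (log2 fold change -0.14, SE 0.0367, edgeR adjusted p = 0.00568). On log2(TPM + 1) with limma it was no longer called (log2 fold change -0.10, limma adjusted p = 0.0847).

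IGFBP2 and IGFBP5 are neighbours on chromosome 2. IGFBP2 is on the plus strand (216632828 to 216664436) and IGFBP5 on the minus strand (216672105 to 216695549), so that their 3′ ends face each other across 7668 bases. Their falls in sµg were unlike in size, with 95% intervals of -0.22 to -0.07 for the log2 fold change of IGFBP2 and -1.11 to -0.59 for that of IGFBP5.

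IGFBP4 (ENSG00000141753.7), an inhibitor of IGF action that the protease PAPPA cleaves, was the binding protein with a positive difference. It had 91.4, 91.3 and 84.2 CPM in sµg, against 81.9, 84.6 and 82.1 CPM in 1g. Replicates 1 and 2 of sµg lay above all 1g libraries, and sµg replicate 3 lay within their range. The log2 fold change of 0.10 (SE 0.043, edgeR adjusted p = 0.0752, unadjusted p = 0.0283) did not pass the threshold. Without sµg replicate 3, the library that stood apart, it did (log2 fold change 0.15, edgeR adjusted p = 0.00211). The gene is on the plus strand of chromosome 17 (40443450 to 40457725) and has a single transcript in the tables.

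IGFBP7 (ENSG00000163453.11), which binds IGFs weakly, was at the edge of detection, with 0.721, 0.397 and 0.389 CPM in sµg and 0.674, 0.921 and 0.397 CPM in 1g. In all, 31 counts in sµg and 47 counts in 1g were assigned to it. A difference between conditions was not detectable at this depth (log2 fold change -0.38, 95% interval -1.23 to 0.46, edgeR adjusted p = 0.499), and without sµg replicate 3 the log2 fold change was -0.23 (edgeR adjusted p = 0.746). The last 386 bases of IGFBP7 (chromosome 4, minus strand, 57030773 to 57110385) overlap POLR2B on the other strand, a subunit of RNA polymerase at 75.57 to 86.38 TPM, and RSEM at its default settings does not use strand, so reads of the 2 genes cannot be told apart there.

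The 6 binding proteins together summed to 463.1, 474.4 and 453.1 TPM in sµg, against 516.2, 502.5 and 511.0 TPM in 1g. IGFBP2 made up 78.6% ± 0.593 of this sum in sµg and 76.7% ± 0.934 in 1g (SD, n = 3). IGFBP3, IGFBP5 and IGFBP6 together had 39.9 ± 1.29 TPM in sµg and 64.4 ± 2.33 TPM in 1g. The ratio of IGFBP4 to IGFBP3 in TPM was 2.23, 2.06 and 1.90 in the sµg libraries, against 1.15, 1.11 and 1.21 in the 1g libraries. IGFBP4 thus stood well above IGFBP3 in sµg and only slightly above it in 1g. These sums and ratios are descriptions of the same libraries and were given no test of their own.

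**Figure D2:**
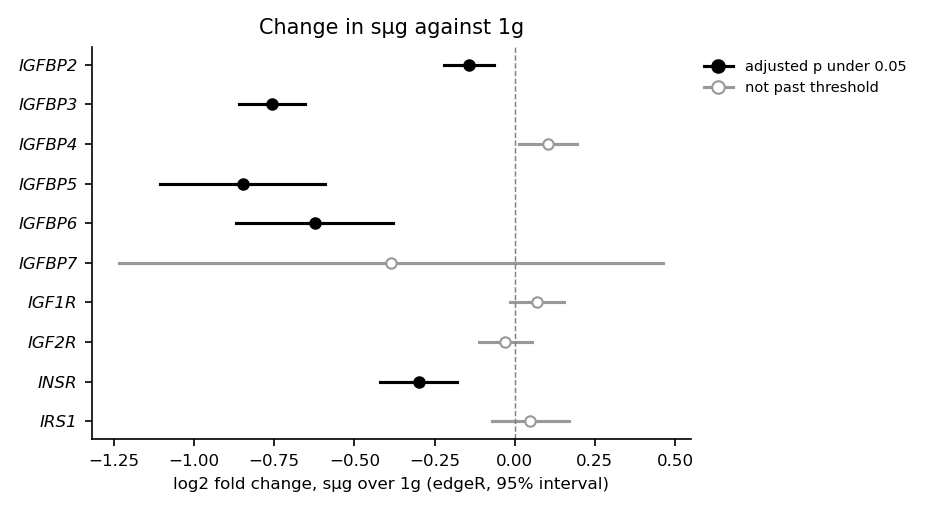
Log2 fold change of each gene in sµg over 1g with its 95% interval from edgeR, 3 libraries per condition, with filled black points for an adjusted p under 0.05 and open grey points for the rest. IGFBP3, IGFBP5 and IGFBP6 lie between -0.85 and -0.62, IGFBP2 and INSR lie closer to 0, and the interval of IGFBP7 is the widest.

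The sequences directly upstream of the binding protein genes were read from the RefSeq promoter table (GRCh38.p14), which held 11 windows for 9 of the 10 members. Shown are the 250 bases before the start of IGFBP3 and IGFBP5, which had the largest falls among the called members, and of IGFBP4, which was not called, each on the strand of its gene. The start used is that of RefSeq. For IGFBP3 it is the start of IGFBP3-202 and lies inside the bounds given for the gene, because IGFBP3-205 is annotated to start further upstream. Capitals mark TATA-like hexamers, spelled out after the sequences, and the GC box GGGCGG or its reverse complement. These motifs were chosen after the sequences were seen.
IGFBP3, chr7:45921273-45921522, minus strand: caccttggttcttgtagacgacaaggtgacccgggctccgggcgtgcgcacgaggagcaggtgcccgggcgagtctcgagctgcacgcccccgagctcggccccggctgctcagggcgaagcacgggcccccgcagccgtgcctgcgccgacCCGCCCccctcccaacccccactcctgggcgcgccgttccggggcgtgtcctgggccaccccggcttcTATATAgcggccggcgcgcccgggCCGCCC
IGFBP5, chr2:216695550-216695799, minus strand: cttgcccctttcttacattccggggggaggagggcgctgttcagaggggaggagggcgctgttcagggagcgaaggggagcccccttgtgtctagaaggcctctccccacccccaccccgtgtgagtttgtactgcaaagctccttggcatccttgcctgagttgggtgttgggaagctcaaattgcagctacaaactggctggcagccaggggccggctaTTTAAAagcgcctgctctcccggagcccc
IGFBP4, chr17:40443200-40443449, plus strand: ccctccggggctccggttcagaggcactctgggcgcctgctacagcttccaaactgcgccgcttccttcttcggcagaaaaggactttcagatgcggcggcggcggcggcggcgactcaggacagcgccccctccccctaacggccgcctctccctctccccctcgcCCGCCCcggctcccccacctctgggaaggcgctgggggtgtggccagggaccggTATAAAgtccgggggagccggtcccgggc
All 3 windows hold a TATA-like hexamer, beginning 30 bases before the start in IGFBP3 and 29 bases before it in IGFBP5 and IGFBP4. Of the 11 windows of the members, these 3 hold such a hexamer on either strand. Of the 35116 promoter windows of this length in the table, 21.2% have one. Of the hexamers searched, IGFBP3 holds TATATA, which 3.73% of all windows hold. IGFBP5 holds TTTAAA, found in 11.3% of them, and IGFBP4 holds TATAAA, found in 10.7%. GGGCGG, on either strand, is in 42.6% of all windows. Counted by gene, 8 members have it in at least 1 window, and IGFBP2 has 3 windows with 1, 1 and 0 matches. There are 6 matches for IGF2R, 4 each for INSR and IRS1, and none for IGFBP5. A match describes the letters only, and the hexamer occurs both in genes that fell and in IGFBP4, which was not called.

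IGF1R (ENSG00000140443.15), the receptor through which IGF1 and IGF2 signal, had 92.9, 96.1 and 91.2 CPM in sµg, against 89.1, 91.4 and 86.5 CPM in 1g. The ranges overlapped, and the log2 fold change of 0.07 (95% interval -0.02 to 0.15, edgeR adjusted p = 0.209) did not pass the threshold, nor did the 0.09 without sµg replicate 3 (edgeR adjusted p = 0.0560). IGF1R is on the plus strand of chromosome 15 (98648539 to 98964530).

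IGF2R (ENSG00000197081.16), the uptake receptor for IGF2 that also carries mannose-6-phosphate tagged enzymes, had 164, 165 and 152 CPM in sµg, against 163, 162 and 167 CPM in 1g. Replicates 1 and 2 of sµg lay within the 1g range, and sµg replicate 3 was the lowest of the 6 libraries. The log2 fold change was -0.03 (95% interval -0.11 to 0.05, edgeR adjusted p = 0.607), and without sµg replicate 3 it was 0.01 (edgeR adjusted p = 0.792). IGF2R lies on the plus strand of chromosome 6 (159969082 to 160113507).

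IRS1 (ENSG00000169047.5), the adaptor between these receptors and PI3-kinase, had 41.8, 37.7 and 37.1 CPM in sµg, against 39.5, 36.9 and 36.2 CPM in 1g. Within each condition replicate 1 was the highest, and the ranges overlapped. Its log2 fold change was 0.05 (95% interval -0.07 to 0.17, edgeR adjusted p = 0.556), and without sµg replicate 3 it was 0.08 (edgeR adjusted p = 0.256). For IGF1R, IGF2R and IRS1, the intervals span only small changes of the count. They rest on the spread between these libraries, which may be technical, so they do not bound a change across separate cultures.

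INSR (ENSG00000171105.14), the insulin receptor, was the receptor that passed the test. It had 38.1, 32.4 and 35.2 CPM in sµg, against 43.0, 42.6 and 44.6 CPM in 1g. All sµg libraries lay below all 1g libraries, and sµg was the more variable condition. On counts INSR fell by 18.8% (log2 fold change -0.30, SE 0.0574, edgeR adjusted p = 0.000503). Per length the groups overlapped, with 9.50, 7.36 and 7.63 TPM in sµg and 8.13, 6.29 and 10.95 TPM in 1g. When edgeR was given each library's effective gene length as an offset, the call was lost (log2 fold change -0.08, edgeR adjusted p = 0.807), and 18.5% of all genes were called.

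Counts and TPM of INSR differ through its effective length in the tables, the transcript length averaged over the estimated transcripts of each library. It was 5416, 5905 and 5912 bases in sµg and 6868, 8789 and 5240 bases in 1g. A retained-intron transcript of 419 bases, INSR-203, drew between 5.37 and 11.28 expected counts in the sµg libraries and between 0 and 11.36 in the 1g libraries. Those few counts stood for 22.5% to 35.7% of INSR TPM in sµg and for 0% to 27.3% in 1g. The fall of INSR was thus seen in counts, while in the TPM of the gene as a whole no fall was detected. The coding transcript INSR-202 had 5.32, 4.64 and 4.58 TPM in sµg, against 5.51, 5.79 and 5.46 TPM in 1g. INSR-201, the other main coding transcript, had 0.31, 0.1 and 0.49 TPM in sµg, against 0.75, 0.5 and 0.72 TPM in 1g. For both, all sµg libraries lay below all 1g libraries, and TPM of single transcripts was not tested.

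**Figure D3:**
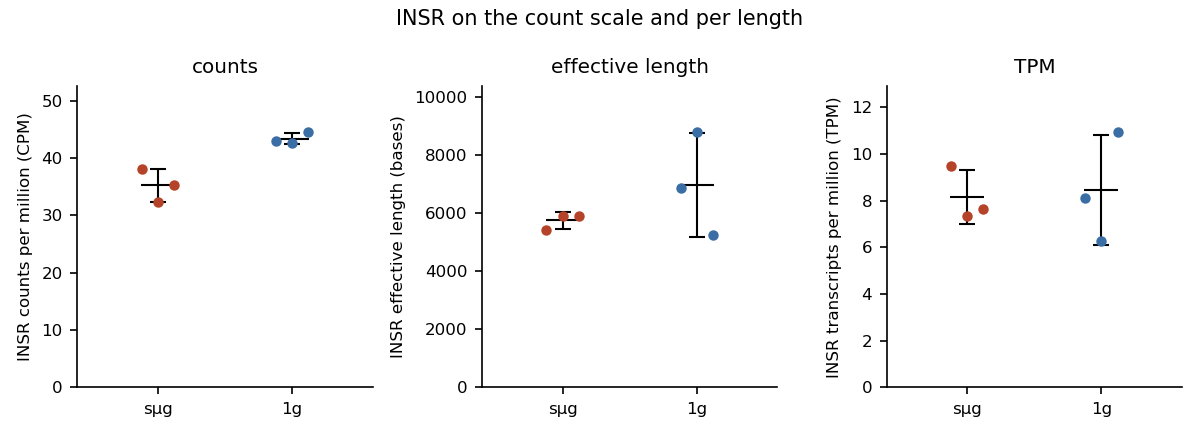
INSR in each library as CPM (left), effective length in bases (middle) and TPM (right), sµg in red left of 1g in blue, with mean and SD of 3 libraries. The sµg libraries are all below the 1g libraries in CPM, while the conditions overlap in effective length and in TPM, and 1g replicate 2 has the longest effective length, 8789 bases.

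Most INSR counts went to 2 coding transcripts that differ by exon 11. INSR-202 lacks this exon and encodes the form known to bind IGF2 as well as insulin, and INSR-201 includes it. The exon is 36 bases long and lies on chromosome 19 (7150497 to 7150532, minus strand, GRCh38). It is printed in capitals, with 12 bases of each flanking intron in lower case, because the share of transcripts that include it is what separates the forms.
INSR exon 11, chr19:7150485-7150544, minus strand: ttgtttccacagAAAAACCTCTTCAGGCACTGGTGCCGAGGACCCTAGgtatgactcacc
The form with exon 11 made up 5.51%, 2.11% and 9.66% of the TPM of both forms in the sµg libraries, against 11.98%, 7.95% and 11.65% in the 1g libraries. The form without the exon was thus the main one in all 6 libraries. The conditions overlapped, since sµg replicate 3 lay above 1g replicate 2. Neither transcript passed edgeR's test across 53807 transcripts (INSR-202 log2 fold change -0.25, edgeR adjusted p = 0.178, and INSR-201 log2 fold change -1.18, SE 0.579, edgeR adjusted p = 0.488). The transcripts also differ at both ends, so reads outside the exon entered this estimate.

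IGF1R was likewise assigned mostly to a pair of coding transcripts that differ by 3 bases at the start of exon 14. IGF1R-217 begins this exon at base 98929558 of chromosome 15, and IGF1R-216 begins it after the 3 bases printed in capitals, between 20 bases of intron before and 20 bases of exon after them.
IGF1R exon 14 start, chr15:98929538-98929580, plus strand: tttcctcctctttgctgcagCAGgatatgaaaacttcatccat
The longer form held 62.0%, 53.6% and 77.8% of the TPM of both in the sµg libraries, against 74.3%, 64.9% and 69.5% in the 1g libraries. The sµg libraries spread on both sides of the 1g range, and the mean was 64.5% ± 12.3 in sµg and 69.5% ± 4.73 in 1g (SD, n = 3). The forms are 12235 and 12232 bases long, so only reads over this exon start separate them and the split is uncertain. Neither passed edgeR's transcript test (IGF1R-217 log2 fold change -0.06, edgeR adjusted p = 0.910, and IGF1R-216 log2 fold change 0.29, edgeR adjusted p = 0.818).

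**Figure D4:**
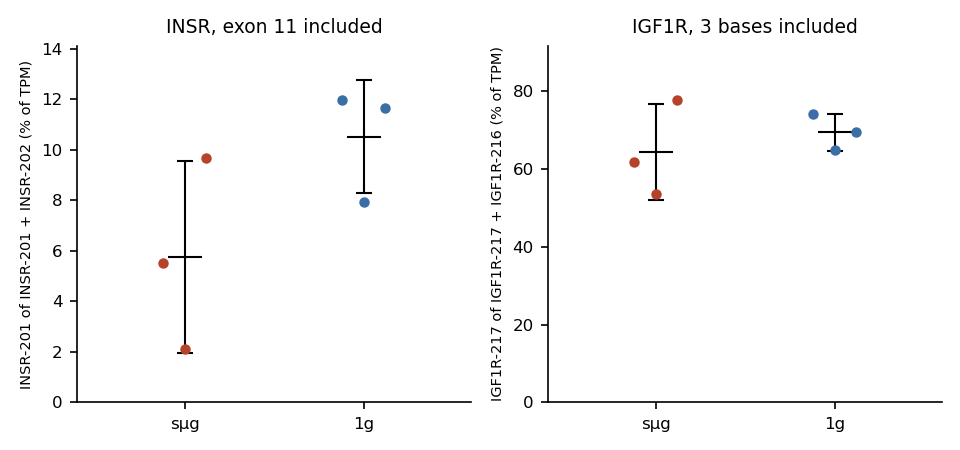
Share of a transcript in the summed TPM of a pair, in percent, for the INSR form with exon 11 (left panel) and the IGF1R form with the 3 extra bases (right panel), sµg in red left of 1g in blue, with mean and SD of 3 libraries. The INSR form is at 2.11% to 9.66% in sµg and 7.95% to 11.98% in 1g, and for IGF1R the sµg libraries span a wider range than the 1g libraries.

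Of 65 transcripts of the 10 genes, 24 entered the transcript test, and 1 was lower and 0 higher in sµg, where 1.29% of all tested transcripts were lower. The 1 transcript was IGFBP3-202 (ENST00000381086.9), a coding transcript of 2322 bases. It held 799, 845 and 879 expected counts in sµg, against 1974, 1498 and 1515 in 1g, and between 88.6% and 92.9% of IGFBP3 TPM in every library. Its log2 fold change was -0.78 (SE 0.0573, edgeR adjusted p = 0.00518). The call was lost without 1g replicate 1 (edgeR adjusted p = 0.0538), with a log2 fold change of -0.77. The call was also lost with the replicate number as a block. At an unadjusted p under 0.05 in edgeR, 8 of the 24 were lower and 0 higher, where 7.56% of all transcripts were lower. DESeq2 called 5 lower and 0 higher, where 4.76% of all transcripts were lower. The 5 were IGFBP2-201, IGFBP3-202, IGFBP5-201, IGFBP6-204 and INSR-202.

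IGFBP2 was split between IGFBP2-204, with 58.2% to 62.2% of its TPM over the 6 libraries, and IGFBP2-201, with 32.3% to 36.5%. Their log2 fold changes were -0.13 and -0.18, and neither passed the edgeR test (adjusted p = 0.365 and 0.206). IGFBP2-201 starts with an exon of 546 bases of which 78.9% are G or C, and IGFBP2-204 starts further downstream, with an exon of 129 bases and 48.8% G or C. IGFBP6 was split between IGFBP6-204 and IGFBP6-201 in a similar way, and both had negative values, -0.84 and -0.63, that did not pass (edgeR adjusted p = 0.182 and 0.272). The share of IGFBP6-201 in the pair was 39.3% ± 5.78 in sµg and 35.8% ± 5.18 in 1g (SD, n = 3), and the conditions overlapped. A large part of IGF2R TPM, 31.7% to 39.6% over the libraries, went to IGF2R-207, a retained-intron transcript of 6468 bases. IGFBP4, IGFBP5 and IRS1 each had most of their TPM in 1 transcript.

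The wider pathway was followed with 52 other genes of IGF and insulin signalling, of which 47 entered the test. In sµg 8 rose and 12 fell, 17.0% and 25.5% of those tested, where 15.5% and 18.2% of all genes did, and the median log2 fold change was 0.02. DESeq2 called 5 higher and 9 lower, where it called 11.4% of all genes higher and 14.3% lower. The count of genes that rose was 3 with the effective length offset and 2 with limma on TPM. Over all genes, 2591 rose in the main test, 1242 with the offset and 1495 with limma on log2(TPM + 1). Without sµg replicate 3, 10 pathway genes rose and 11 fell. The count that rose was 5 without sµg replicate 1, 5 without 1g replicate 1 and 4 without 1g replicate 3. Over all genes, 2967, 2236, 1879 and 1959 rose without these libraries in turn. With limma on log2(TPM + 1), 7 pathway genes fell, and 1459 genes fell over all.

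The ligands were scarce. IGF2, the growth factor that both IGF1R and IGF2R bind, was at 0.961, 1.09 and 0.632 CPM in sµg, against 2.55, 2.81 and 2.38 CPM in 1g. All sµg libraries lay below all 1g libraries, on 55 counts in sµg and 184 counts in 1g. IGF2 fell by 65.2% (log2 fold change -1.52, SE 0.233, edgeR adjusted p = 5.47e-05), and on the compressed scale of log2(TPM + 1) the log2 fold change was -0.43. The readthrough gene INS-IGF2, which shares exons with IGF2, is listed at 0 in all libraries. IGF1 had 1 count in sµg and 1 in 1g, INS had 0 counts in all 6 libraries, and IGFBP1 had 0 counts in sµg and 2 in 1g, so no comparison was made for these.

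Among the proteases that free IGFs from their binding proteins, and the inhibitors of these proteases, 1 of 5 rose and 2 fell. Of all genes tested, 15.5% rose and 18.2% fell. PAPPA, the protease that cleaves IGFBP4, had 2.31, 1.49 and 1.51 CPM in sµg, against 5.35, 6.64 and 4.72 CPM in 1g. It fell by 68.0% (log2 fold change -1.64, SE 0.187, edgeR adjusted p = 2.03e-06), and on log2(TPM + 1) the log2 fold change was -0.37. The secreted inhibitors of PAPPA differed in direction. STC1 rose, with 64.6, 61.0 and 55.9 CPM in sµg and 39.9, 41.5 and 41.6 CPM in 1g (log2 fold change 0.56, edgeR adjusted p = 2.08e-07). STC2 fell, with 103, 110 and 112 CPM in sµg and 150, 158 and 157 CPM in 1g (log2 fold change -0.51, edgeR adjusted p = 1.82e-08). IGFBPL1, a protein related to the IGFBPs, also fell, with 59.5, 59.7 and 56.1 CPM in sµg and 76.4, 80.9 and 86.7 CPM in 1g (log2 fold change -0.48, edgeR adjusted p = 6.83e-07).

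Among the other receptors and adaptors, 3 of 11 rose and 2 fell, 27.3% and 18.2%, where 15.5% and 18.2% of all genes did. SHC1, an adaptor that links these receptors to the RAS and MAP kinase arm, rose slightly (327 ± 5.95 CPM in sµg and 278 ± 8.19 CPM in 1g, log2 fold change 0.23, edgeR adjusted p = 6.89e-05). SOCS3, a feedback inhibitor of cytokine and insulin receptors, fell (34.3 ± 1.37 CPM in sµg and 51.7 ± 1.29 CPM in 1g, log2 fold change -0.59, edgeR adjusted p = 4.09e-08).

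In the PI3-kinase and AKT arm 4 of 26 rose and 4 fell, 15.4% each, where 15.5% of all genes rose and 18.2% fell. PIK3R3, a regulatory subunit of PI3-kinase, rose to 29.7 ± 1.4 CPM in sµg, against 22.5 ± 0.717 CPM in 1g (log2 fold change 0.40, edgeR adjusted p = 4.32e-05). INPP5D, a lipid phosphatase that acts on the product of PI3-kinase, fell to 8.06 ± 1.32 CPM in sµg, against 12.5 ± 0.556 CPM in 1g (log2 fold change -0.63, edgeR adjusted p = 0.000142). As for INSR, the call of INPP5D was lost with the effective length offset (log2 fold change -0.36, edgeR adjusted p = 0.157). DDIT4, an inhibitor of the mTOR complex downstream of AKT, fell to 82.9 ± 5.50 CPM in sµg, against 120 ± 1.39 CPM in 1g (log2 fold change -0.53, edgeR adjusted p = 4.66e-08). Of the IGF2 mRNA binding proteins, 2 of 3 fell, among them IGF2BP2 (103 ± 3.53 CPM in sµg and 121 ± 1.72 CPM in 1g, log2 fold change -0.23, edgeR adjusted p = 0.000153).

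**Figure D5:**
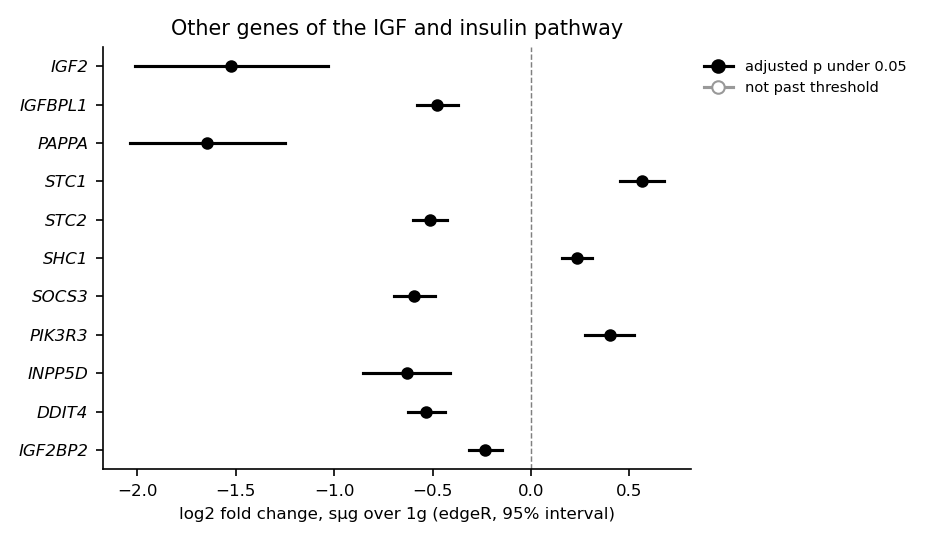
Log2 fold change in sµg over 1g with the 95% interval from edgeR (3 libraries per condition) for 11 other pathway genes past an adjusted p of 0.05, ordered by role. IGF2 and PAPPA have the lowest values, -1.52 and -1.64, while STC1, SHC1 and PIK3R3 are on the positive side.

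Markers of other cell types moved in the same libraries, where 15.5% of all tested genes were higher and 18.2% lower. Sums are also given without the marker of each list whose mean CPM differed most between the conditions. The summed CPM of 10 trophectoderm and amnion markers was 13.6 to 16.1 in sµg and 56.3 to 60.1 in 1g. Of these, 6 of 6 tested markers were lower. CGA, another marker of the list, had 0 counts in all libraries. For 10 mesenchymal and fibroblast markers the sum was 515 to 544 CPM in sµg and 729 to 752 CPM in 1g, with 2 of 6 tested markers higher and 3 lower. DCN had 0 counts in sµg and 1 count in 1g. Without COL1A1 alone this sum turned round, to 437 to 449 CPM in sµg and 410 to 419 CPM in 1g. Most of that remainder was THY1, with means of 315 CPM in sµg and 254 CPM in 1g. THY1 and POSTN were the markers called higher, and COL1A2 and PDGFRA were called lower along with COL1A1. For 5 neural crest markers the sum was 35.1 to 38.8 CPM in sµg and 54.4 to 57.1 CPM in 1g, with 1 of 5 higher and 2 lower, and without TFAP2A the conditions overlapped, at 32.3 to 36.4 CPM in sµg and 36.003 to 38.1 CPM in 1g. TFAP2A is in both the trophectoderm and the neural crest list. Without it, the trophectoderm sum stayed lower, at 11.2 to 13.4 CPM in sµg and 38.4 to 41.7 CPM in 1g. The sums were 474 to 505 CPM in sµg and 542 to 561 CPM in 1g for 6 neural markers (2 of 5 higher, 3 lower), which also turned round without NES, to 141 to 145 CPM in sµg and 114 to 120 CPM in 1g. Most of that remainder was TUBB3, with means of 128 CPM in sµg and 105 CPM in 1g. TUBB3 (log2 fold change 0.28) and MAP2 (0.75) were called higher. PAX6 (-2.32) and NEUROG2 (-2.04) were called lower, as was NES. For 6 mesoderm markers the sums were 2.87 to 3.41 CPM in sµg and 4.72 to 5.77 CPM in 1g (0 of 3 higher, 1 lower). Without TBX6 the mesoderm sum stayed lower, at 1.87 to 1.99 CPM in sµg and 2.16 to 3.15 CPM in 1g. For 6 endoderm markers the sums were 6.16 to 8.84 CPM in sµg and 5.82 to 8.11 CPM in 1g (1 of 4 higher, 2 lower). Without AFP the conditions also overlapped, at 1.44 to 2.58 CPM in sµg and 2.42 to 5.02 CPM in 1g. The 8 pluripotency markers summed to 7363 to 7414 CPM in sµg and 8723 to 8821 CPM in 1g, with 0 higher and 3 lower. Without DNMT3B this sum stayed lower, at 5556 to 5643 CPM in sµg and 6180 to 6259 CPM in 1g. IGFBP3, IGFBP5, IGFBP6 and IGF2 are also made by mesenchymal and other differentiated cells, and the part of these cells in the results was not tested. In bulk RNA, fewer cells of a type and less RNA per cell cannot be told apart.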

How the data were processed

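RNA was measured in 6 libraries, 3 of sµg and 3 of 1g hPSCs, made with a kit that selects poly(A) RNA and keeps strand, and sequenced as read pairs. Per the study's methods, reads were aligned with STAR (2.7.7a) to GRCh38.p13 with GENCODE 36 and quantified with RSEM (1.3.3), and the sources used here do not tell which of the study's alignment settings gave the deposited tables. Per the file headers, the authors deposited expected counts, TPM, effective lengths and, for transcripts, the percent of the gene's TPM (12 tables). RSEM divides reads shared by transcripts by estimation, so transcript values are less certain than gene values.

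For testing, expected counts became whole numbers by rounding and entered edgeR (4.0.16, R 4.3.3): TMM scaling, filterByExpr (minimum count 10, minimum total 15), glmQLFit and glmQLFTest on the 6 libraries without covariates, Benjamini-Hochberg adjustment over all 16763 genes or 53807 transcripts, threshold 0.05. TMM factors were 0.988 to 1.01, and the biological coefficient of variation was 3.96%. Libraries held 19971097 to 28506848 counts. The labels do not say that replicates came from separate cultures, so p-values measure the spread between these libraries, which may be technical. Gene positions were taken from GENCODE 44 on GRCh38, where 8 of 10 members kept their gene version. The fits were tested on simulated data with 50 changed genes at each size of change. There edgeR recovered 32% of genes changed by 0.2 on the log2 scale, 78% at 0.5, 90% at 1 and 100% at 2. It also called 10 unchanged genes. Most changes of 0.2 were thus missed there.

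The tests were repeated with DESeq2 (1.42.0), with the replicate number as a block, with an effective length offset, with RLE in place of TMM scaling, with either no filter or at least 10 counts in every library, with limma (3.58.1) on TPM at pseudocounts of 1 and 0.1, and with each library left out. The members and gene lists were chosen with earlier results of these data known. Named were all members, IGF1, IGF2, INS and IGFBP1, the 10 called pathway genes with the smallest adjusted p, the pluripotency factors, and up to 3 transcripts per member by TPM. The rule also named, per other list, the marker with the highest mean CPM over all 6 libraries: NES (log2 fold change -0.32), THY1 (0.31), FOXD3 (0.24), KRT7 (-0.62), AFP (0.78) and TBX6 (-1.08), each past the edgeR threshold.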

Additional observations from a re-analysis of the deposited data

How the results depend on the processing

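IGFBP3, IGFBP5 and IGFBP6 kept direction and call in every alternative run. The count of members lower in sµg was 3 with limma on log2(TPM + 1) and 3 on log2(TPM + 0.1), where IGFBP2 and INSR (log2 fold change -0.02, limma adjusted p = 0.943) were lost, 4 with the effective length offset, and 5 in every other setting. The count of members higher in sµg was 0 to 1 when each library was left out in turn, and the 1 was IGFBP4. In the pathway list the count higher was 5 with DESeq2, 3 with the effective length offset, 2 with limma on log2(TPM + 1) and 2 on log2(TPM + 0.1), and 4 to 10 with a library left out, and the count lower was 7 with limma at either pseudocount. On log2(TPM + 1), PIK3R3 (log2 fold change 0.34, limma adjusted p = 0.0643), IGF2BP2 (-0.23, limma adjusted p = 0.0810) and INPP5D (-0.27, limma adjusted p = 0.251) lost their calls. Of member transcripts, DESeq2 called 5 lower, and 0 to 1 were lower with a library left out. DESeq2 called 1 endoderm marker lower and 0 neural crest markers higher. Over all genes, the effective length offset gave 1242 higher and 1864 lower, limma on log2(TPM + 1) 1495 higher and 1459 lower, and limma on log2(TPM + 0.1) 1480 higher and 1444 lower. No result reversed its direction while called, and no scaling moved the median of all genes by more than 0.1 on the log2 scale.

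Replicate numbers are shared by the conditions, and the paper's methods call the control samples matched without saying which library matches which. The deviations of same-numbered libraries from their condition means correlated at 0.00, 0.04 and 0.01. The main test therefore did not pair the libraries by number. With the replicate number as a block, 5 members were lower and 0 higher, 8 pathway genes were higher and 12 lower, and 0 member transcripts were lower (IGFBP3-202, log2 fold change -0.78 as without the block, edgeR adjusted p = 0.124). Depth limits IGFBP7 and the ligands, and 3 libraries per condition limit all intervals.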
